A study of Mus musculus with 6 samples.

Results

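The 41 genes described here encode the working parts of the lysosome: cathepsins and other hydrolases, lysosomal membrane proteins, soluble helper proteins, and the subunits of the vacuolar proton pump (V-ATPase). They were chosen by name: every listed gene whose symbol begins with Atp6v or Atp6ap, and 25 further lysosomal genes, of which 23 were listed. They are 41 of the 13363 genes in the expression table. Asah1 and Neu1, and 8 of the 26 coding Atp6v and Atp6ap genes of the annotation (Atp6v1b1, Atp6v1c2, Atp6v1e2, Atp6v1g3, Atp6v1fnb, Atp6v0a4, Atp6v0d2 and Atp6ap1l), were not analysed here. The table lists only genes above 0 in all 6 muscles.

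RNA sequencing compared the gastrocnemius, a calf muscle, of C26 mice with that of control mice, 3 muscles per group. The mice were male and of the Balb/c strain. They were bought at 6 weeks of age and acclimated for 1 week before the C26 mice received C26 colon adenocarcinoma cells under the skin of the flank, a standard model of cancer cachexia, the loss of muscle and fat that accompanies a tumor. The control mice carried no tumor, body weight was followed for 15 days after inoculation, and the day on which the sequenced muscles were taken was not stated beyond that. Whole muscle was sequenced, so a lower level can come from fewer cells of a type or from less RNA per cell, and these cannot be told apart.

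Lysosomes break down proteins, glycans, glycogen and lipids delivered by endocytosis and autophagy. The hydrolases need an acid lumen, which the V-ATPase maintains: its cytosolic V1 sector splits ATP and its membrane V0 sector moves protons. In skeletal muscle the autophagy-lysosome route works beside the ubiquitin-proteasome system in protein turnover, and many of its genes are targets of the MiT/TFE transcription factors, which bind E-box sequences around the letters CACGTG in promoters.

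E-box sequences of 8 of the genes are shown because the letters that MiT/TFE factors recognize could be read from the promoters and set beside each gene's response. Promoter windows ran from 250 bases before to 50 bases after the start of transcription, were taken from RefSeq on the GRCm38.p6 build, and matched 34 of the 41 genes. The start is that of the window. Each stretch is written 5′ to 3′ on the strand of its gene. Capitals mark CACGTG together with any adjoining letters of TCACGTGA.
Ctsd: cgcccgcgtcTCACGTGAcccgttgagg
Ctsl: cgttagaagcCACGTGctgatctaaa
Ctsf: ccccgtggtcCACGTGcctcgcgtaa
Gaa: ttctgtgcgaTCACGTGtttgactctg
Atp6v1a: tttttttaaaTCACGTGAtaggcttaac
Lamp1: cgtgaccacaTCACGTGcggaacgga
Mcoln1: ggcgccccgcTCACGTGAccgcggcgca
Gla: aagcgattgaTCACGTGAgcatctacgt

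The Ctsd stretch lay at chr7:142387909-142387936 on the minus strand, with its first capital 99 bases before the start. The Ctsl stretch was at chr13:64370741-64370766 on the minus strand, 236 bases before the start, and that of Ctsf at chr19:4855076-4855101 on the plus strand, 79 bases before it. The Gaa stretch was at chr11:119267812-119267838 on the plus strand, 141 bases before the start. The Atp6v1a stretch was at chr16:44139374-44139401 on the minus strand, 132 bases before the start. The gene spans given below are those of RefSeq and can begin at another transcript, so the Ctsl and Atp6v1a stretches lie before the start of their windows but inside the spans of their genes. These 5 genes were higher in C26 muscle. The other 3 are shown as contrasts, since their windows hold the letters and their expression did not pass the test. Lamp1 (chr8:13159135-13159160, plus strand) and Mcoln1 (chr8:3500463-3500490, plus strand) carried the capitals 16 and 46 bases before their starts, and Gla (chrX:134601216-134601243, minus strand) 228 bases before it.

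Expression is given as scaled TPM, that is, the deposited FPKM rescaled to TPM (transcripts per fixed total, the same in each library) and divided by a normalisation factor per library. Differences were tested by limma on log2(scaled TPM + 1) over all 13363 genes with Benjamini-Hochberg adjustment, and a gene is called higher or lower where its adjusted p was under 0.05. Fold changes are on that scale, which understates the change of low genes. The labels do not say that the 3 muscles of a group came from separate mice, so the p-values measure the spread between these samples.

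The muscles were not uniform within the groups. Of the 15 members called higher, C26 replicate 3 was the lowest C26 muscle for 13 (86.7%), and it was also the lowest for 71.8% of all genes called higher. Control replicate 3 stood apart by leukocyte genes, with Ptprc at 57.9 scaled TPM against 1.21 and 0.677 in the other controls. Muscle fibre markers were those of the labelled tissue: all 10 were listed, and they summed to 225468 to 248787 scaled TPM in control muscle and to 154513, 123154 and 203965 in C26 muscle, where C26 replicate 3 had the highest sum. Of the 10, 2 were lower in C26 muscle, Pvalb, a calcium buffer of fast fibres (log2 fold change -2.59), and Mylpf, a fast myosin light chain (-1.95). Myh1, a fast myosin heavy chain, was at 4837 scaled TPM in C26 replicate 3 against 530 and 435 in the other C26 muscles, and was not called.

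In C26 muscle 15 of the 41 genes were higher and 4 were lower, while 22 did not pass the test. Among all genes 19.4% were higher and 14.5% lower. Calls went with level over the whole table, so genes of like level give a closer background. Of genes with a mean of at least 10 scaled TPM over all 6 muscles, 33.3% were higher and 10.1% lower, and among the 34 members at that level 15 (44.1%) were higher and 1 lower. Of genes under 10 scaled TPM, 8.03% were higher and 18.0% lower, and of the 7 members there 0 were higher by limma (0 at an unadjusted p under 0.05) and 3 lower. The mean over both groups is itself moved by the change: Npc1 and Atp6v1a reached 10 scaled TPM through C26 muscle. The 15 genes included 3 of the 7 cathepsins, 2 of the 7 other hydrolases, 4 of the 7 membrane proteins, 5 of the 9 V1 subunits and 1 of the 7 V0 subunits. The lower genes were Ctso, Lipa, Atp6v1g1 and Atp6v1g2. The soluble helpers Psap and Npc2 and the accessory proteins Atp6ap1 and Atp6ap2 were not called. With a fold change above 4 as a further requirement, Npc1, Gaa and Ctsl were left as higher and 0 as lower by limma (0 also at an unadjusted p under 0.05), where 1.76% of all genes were higher and 1.73% lower. The median log2 fold change was 0.33 over the 41 genes and -0.05 over all genes. The median depended on the scaling. On the FPKM as deposited it was 0.11 over the 41 genes and -0.14 over all genes, and with quantile normalization its sign turned, at -0.05 over the 41 genes against 0.02 over all genes. The groups did not overlap for 19 genes that were higher and 9 that were lower in C26 muscle, against 27.0% and 26.5% of all genes.

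**Figure D1:**
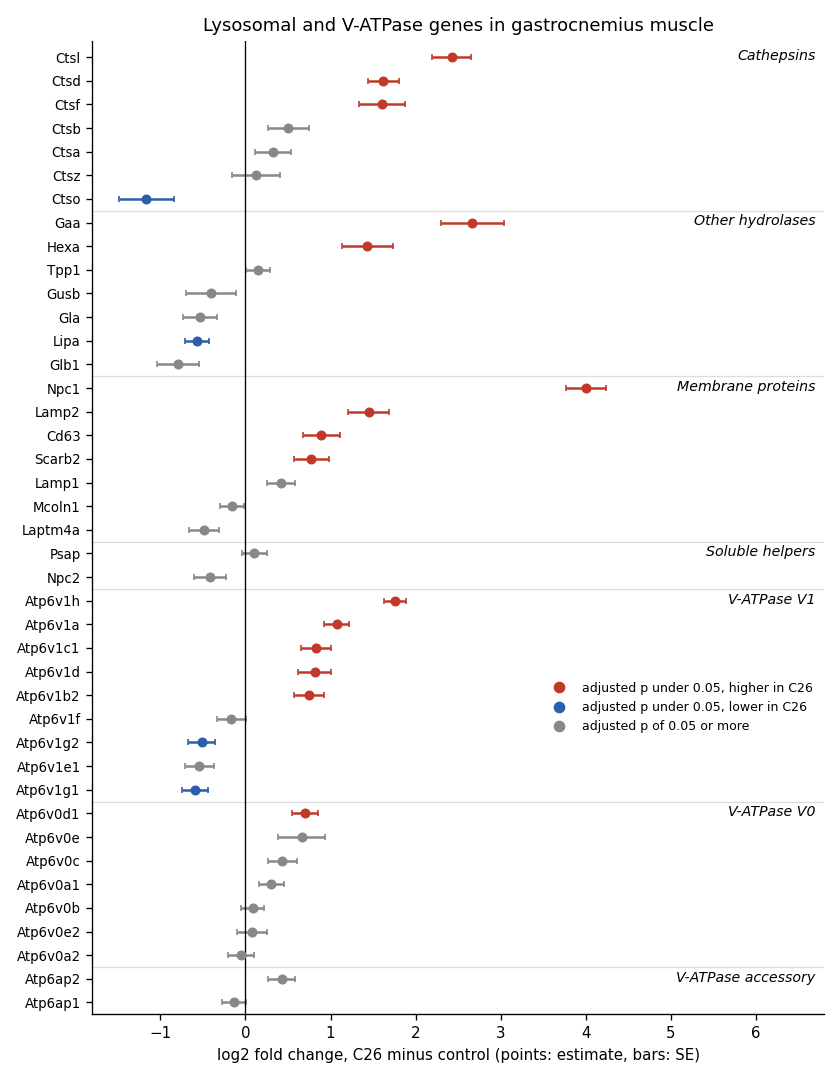
Log2 fold change (C26 minus control, on log2 of scaled TPM + 1) of each of the 41 genes on the horizontal axis, ordered by class, with points as estimates and bars as SE (3 muscles per group). Red points are the 15 genes called higher, blue the 4 called lower and grey the 22 not called, and Npc1 lies farthest to the right at 4.01.

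The summed level of the 41 genes was 5796 to 6958 scaled TPM in C26 muscle and 3442 to 4080 in control muscle. Most of the gain in the sum lay in the 7 cathepsins among the members. They summed to 2342 to 2732 scaled TPM in C26 muscle against 807 to 1081 in the controls. Of these, Ctsd and Ctsl gained most, with means of 1320 and 600 in C26 muscle against 434 and 113. The other hydrolases summed to 408 to 908 against 149 to 186, and the membrane proteins to 1252 to 1581 against 802 to 1031. The sums of the 9 V1 subunits overlapped between the groups, at 746 to 807 scaled TPM against 759 to 793, although 7 of them were called. The V0 subunits summed to 429 to 505 against 362 to 389. Cathepsins outside the 41 genes are not in these sums. Among them Ctsc was called lower (log2 fold change -0.97, limma adjusted p = 0.0184). Ctsh (-1.79), Ctss (-1.59), Ctsw (-1.23) and Ctsk (-0.59) had estimates below 0 and were not called.

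Cathepsins are the proteases of the lysosome. Ctsl (Entrez 13039, chromosome 13, 64361890 to 64370772 on GRCm38.p6), a cysteine endopeptidase known as an atrophy-related gene of muscle, was at 696, 527 and 578 scaled TPM in C26 muscle and at 139, 118 and 81.5 in the controls. The lowest C26 muscle was thus far above the highest control. The fold change was 5.37 (log2 2.43 ± 0.23 SE, limma with Benjamini-Hochberg adjusted p = 0.00225). Ctsd (Entrez 13033, chromosome 7, 142375910 to 142387827), an aspartic protease, was the most abundant of the 41 transcripts in C26 muscle, at 1281, 1397 and 1282 scaled TPM against 465, 504 and 333 in the controls. It was tightly grouped in C26 muscle and rose 3.08-fold (log2 1.62 ± 0.19 SE, limma adjusted p = 0.00355).

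Ctsf, a cysteine cathepsin, had 86.7, 71.2 and 49.7 scaled TPM in C26 muscle and 24.4, 25.5 and 15.8 in the controls. Both groups were spread, without overlap, and Ctsf rose 3.05-fold (log2 1.61 ± 0.27 SE, limma adjusted p = 0.00848). Ctso, another cysteine cathepsin, went the other way from a low level. It was at 2.43, 1.66 and 2.86 scaled TPM in C26 muscle against 4.88, 4.69 and 10.9 in the controls, and its log2 fold change was -1.17 ± 0.32 SE (limma adjusted p = 0.0337). The highest value was that of control replicate 3, and without that library the log2 fold change was -0.82 (limma adjusted p = 0.0300). The call was lost in 4 of the 6 leave-one-out fits, where the adjusted p of limma ranged up to 0.105, and with quantile normalization (limma adjusted p = 0.0742).

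Ctsb, a cysteine protease, Ctsa, the carboxypeptidase that protects other lysosomal enzymes, and Ctsz were not called. Ctsb was abundant, at 510, 414 and 327 scaled TPM in C26 muscle and 342, 317 and 223 in the controls, and C26 replicate 3 lay inside the control range (log2 fold change 0.50 ± 0.24 SE, limma adjusted p = 0.144). The log2 fold changes of Ctsa and Ctsz were 0.33 and 0.12. Ctsb shares its locus with Fdft1, an enzyme of sterol synthesis, which rose by 2.69 on the log2 scale. Ctsa overlaps Pltp (log2 fold change -2.12) and Ctsz overlaps Nelfcd (-1.06), both lower in C26 muscle. The strand used in counting was not stated, so reads from these overlapping stretches cannot be assigned to either gene with certainty.

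Among the other hydrolases, the enzymes of glycogen and ganglioside breakdown were higher. Gaa (Entrez 14387, chromosome 11, 119267963 to 119285458), the acid alpha-glucosidase that degrades lysosomal glycogen, was at 702, 714 and 298 scaled TPM in C26 muscle and at 84.9, 100.3 and 66.7 in the controls. Its level in C26 replicate 3 was far below that of the other C26 muscles and still above every control. The fold change was 6.34 (log2 2.67 ± 0.37 SE, limma adjusted p = 0.00549). Hexa, the alpha subunit of beta-hexosaminidase, showed the same order of muscles. It had 130.8, 155 and 70.3 scaled TPM in C26 muscle against 39.9, 43.7 and 39.7 in the controls (log2 fold change 1.43 ± 0.30 SE, limma adjusted p = 0.0144).

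Lipa, the lysosomal acid lipase, was lower in C26 muscle. It was at 2.80, 2.81 and 3.46 scaled TPM against 5.35, 4.59 and 4.93 in the controls, with a log2 fold change of -0.57 ± 0.14 SE (limma adjusted p = 0.0233). The call was lost in 3 of 10 alternatives and 3 of 6 leave-one-out fits, and with quantile normalization the log2 fold change was -0.31. Glb1, the lysosomal beta-galactosidase, lay just outside the threshold with a log2 fold change of -0.79 and a limma adjusted p of 0.0503. The log2 fold changes of the other hydrolases not called were 0.15 for Tpp1 (tripeptidyl peptidase), -0.41 for Gusb (beta-glucuronidase) and -0.54 for Gla (alpha-galactosidase A).

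**Figure D2:**
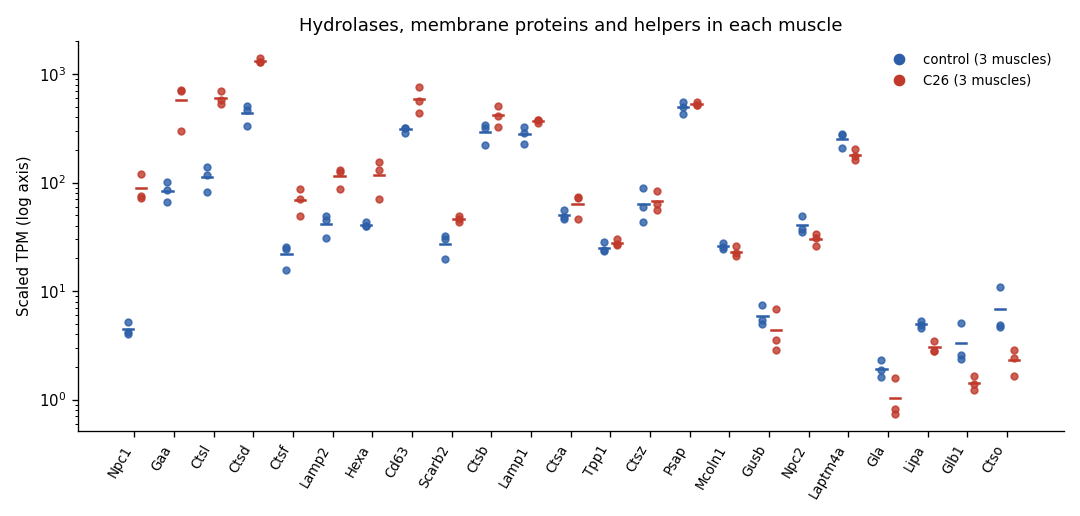
Scaled TPM in each of the 6 muscles (log axis) for the 23 hydrolases, membrane proteins and helpers, ordered by log2 fold change; each point is a muscle and the horizontal marks are group means. Npc1, Gaa, Ctsl and Ctsd show wide gaps between C26 and control muscles, while Ctso and Lipa lie below their controls at the low end of the axis.

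Of the membrane proteins, Npc1 had the largest fold change of all 41 genes. Npc1 (Entrez 18145), the transporter that exports cholesterol from the lysosome, was at 121, 74.97 and 71.9 scaled TPM in C26 muscle against 4.22, 5.25 and 3.99 in the controls. All 3 C26 muscles were far above the highest control, and C26 replicate 1 was the highest. The fold change was 16.1 (log2 4.01 ± 0.23 SE, limma adjusted p = 0.000822). Npc2, the soluble protein that hands cholesterol to Npc1, was at 30.9, 33.3 and 25.8 scaled TPM in C26 muscle and 49.5, 37.2 and 35.3 in control muscle, with a log2 fold change of -0.42 ± 0.18 SE (limma adjusted p = 0.121). Npc1 and its partner thus had estimates of opposite sign. Rmc1, which overlaps Npc1, had a log2 fold change of 0.59 (limma adjusted p = 0.0507).

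Lamp2, a main glycoprotein of the lysosomal membrane whose isoforms serve chaperone-mediated autophagy and autophagosome fusion, was at 129.7, 126 and 88.1 scaled TPM in C26 muscle and at 49.0, 44.8 and 31.0 in the controls. It rose 2.73-fold (log2 1.45 ± 0.24 SE, limma adjusted p = 0.00813). Its relative Lamp1 was more abundant and moved less, at 355, 374 and 380 scaled TPM against 286, 323 and 229. The groups did not overlap for Lamp1 but the log2 fold change was 0.42 ± 0.16 SE (limma adjusted p = 0.0920).

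Cd63, a tetraspanin of late endosomes and lysosomes, was at 568, 760 and 440 scaled TPM in C26 muscle against 321, 320 and 287 in the controls (log2 fold change 0.89 ± 0.22 SE, limma adjusted p = 0.0231). Scarb2, the receptor that carries beta-glucocerebrosidase to the lysosome, was at 49.1, 46.7 and 43.2 scaled TPM against 29.96, 32.0 and 19.7 (log2 fold change 0.77 ± 0.21 SE, limma adjusted p = 0.0307). Neither gene overlapped between the groups. Mcoln1, the lysosomal calcium channel, had a log2 fold change of -0.16, and Laptm4a, a small membrane protein of late endosomes, one of -0.49. Psap, the precursor of the saposins that present lipids to the hydrolases, was the most abundant member by mean in control muscle, at 500, 556 and 431 scaled TPM, a range that overlaps that of Ctsd. In C26 muscle it was at 514, 554 and 521, and its log2 fold change was 0.10.

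The V-ATPase showed a division within the V1 sector. The catalytic subunit A, the subunit B next to it, the subunits C and H at the junction with V0, and the rotor subunit D were higher in C26 muscle. The stalk subunits E and G and the rotor subunit F had estimates below 0, and both listed G genes were called lower. This division in sign held in all 16 alternative analyses, while the calls of the G genes did not. Atp6v1g1 lost its call in 3 of 10 alternatives and 4 of 6 leave-one-out fits, and Atp6v1g2 in 6 of 10 and 5 of 6, with a log2 fold change of -0.08 under quantile normalization. The division also went with transcript length. The longest annotated transcripts of the 5 higher genes had 2049 to 4234 bases, and those of the 4 below 0 had 806 to 1528. Subunit role and length cannot be told apart here. Over the 41 genes the Pearson correlation of log2 length with log2 fold change was 0.34, against 0.09 over all genes with a known length.

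Atp6v1h (Entrez 108664, chromosome 1, 5082978 to 5163213), the regulatory subunit H, was at 68.7, 65.5 and 60.03 scaled TPM in C26 muscle and at 18.6, 19.4 and 17.4 in the controls. Both groups were tight, and the fold change of 3.37 was the largest of the pump (log2 1.75 ± 0.13 SE, limma adjusted p = 0.00128). Atp6v1a (chromosome 16, 44085402 to 44139702), the subunit that splits ATP, was at 21.7, 22.1 and 18.8 scaled TPM against 9.94, 10.1 and 8.22, a rise of 2.10-fold (log2 1.07 ± 0.15 SE, limma adjusted p = 0.00516). Each C26 muscle was above every control for both genes.

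Atp6v1c1, the subunit C gene, was at 41.0, 39.8 and 30.3 scaled TPM in C26 muscle and 20.003, 22.8 and 18.2 in the controls (log2 fold change 0.83 ± 0.17 SE, limma adjusted p = 0.0149). Atp6v1d, subunit D, was at 126, 138 and 92.5 against 63.9, 75.4 and 60.2 (log2 fold change 0.81 ± 0.19 SE, limma adjusted p = 0.0217). Atp6v1b2, the B subunit gene used in most tissues, was at 53.5, 58.1 and 40.5 against 27.8, 33.0 and 28.0 (log2 fold change 0.75 ± 0.18 SE, limma adjusted p = 0.0226). In all 3 genes C26 replicate 3 was the lowest C26 muscle and still above the controls.

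Subunit G was measured through Atp6v1g1, the widely expressed gene, and Atp6v1g2, the form known from neurons. Atp6v1g1 was the most abundant transcript of the pump in control muscle, at 390, 338 and 331 scaled TPM, and was at 220, 217 and 267 in C26 muscle (log2 fold change -0.59 ± 0.15 SE, limma adjusted p = 0.0272). Atp6v1g2 was the scarcer G gene, at 0.797, 1.42 and 0.946 scaled TPM in C26 muscle against 1.92, 1.95 and 1.88 in the controls (log2 fold change -0.52 ± 0.15 SE, limma adjusted p = 0.0437). Every C26 muscle was below every control for both G genes. Atp6v1g2 overlaps Nfkbil1, which rose by 1.16 on the log2 scale. Atp6v1e1, subunit E, also did not overlap between the groups, at 33.0, 24.4 and 25.9 scaled TPM against 36.1, 40.5 and 45.6, and lay just outside the threshold (log2 fold change -0.54 ± 0.17 SE, limma adjusted p = 0.0506). Atp6v1f, subunit F, overlapped and had a log2 fold change of -0.16.

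**Figure D3:**
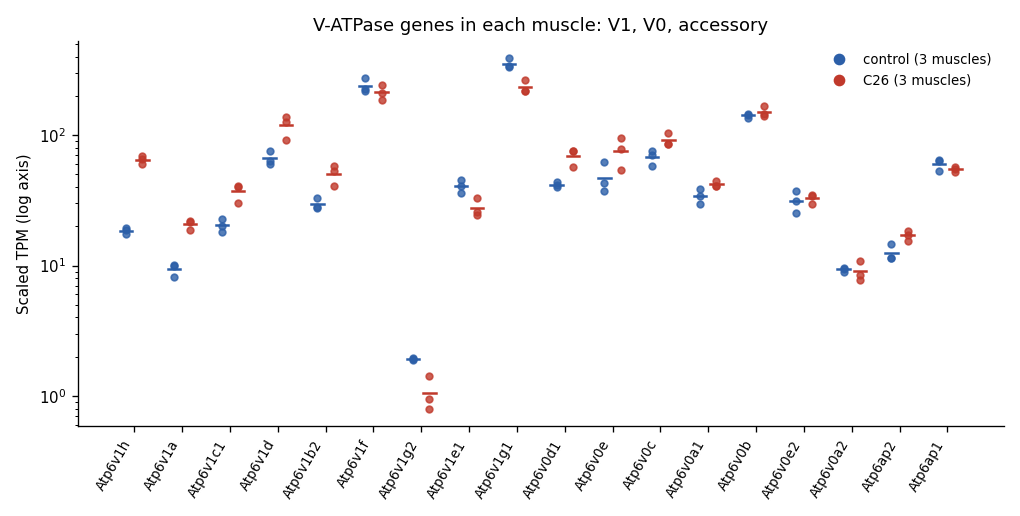
Scaled TPM in each of the 6 muscles (log axis) for the 18 listed V-ATPase genes, grouped as V1, V0 and accessory; each point is a muscle and the horizontal marks are group means. Atp6v1h shows the widest gap, with C26 muscles at 60.03 to 68.7, while Atp6v1g1 and Atp6v1g2 lie below their controls and Atp6v0b, Atp6v0e2 and Atp6v0a2 overlap.

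In the V0 sector, Atp6v0d1, the subunit d gene that couples V0 to the rotor, was at 75.02, 75.06 and 57.2 scaled TPM in C26 muscle against 44.0, 39.8 and 41.8 in the controls (log2 fold change 0.70 ± 0.16 SE, limma adjusted p = 0.0184). It was the only one of the 7 V0 genes called. The proteolipid gene Atp6v0c, which forms the proton-carrying ring, was at 85.9, 104.8 and 86.1 scaled TPM against 70.6, 76.3 and 57.6 without overlap, with a log2 fold change of 0.43 (limma adjusted p = 0.0861).

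Subunits a and e each had more than 1 listed gene. Atp6v0a1 was at 44.6, 40.9 and 41.1 scaled TPM in C26 muscle and 38.7, 34.1 and 29.7 in the controls, and Atp6v0a2 at 7.81, 8.49 and 10.8 against 8.98, 9.57 and 9.46. Atp6v0a1 was thus the more abundant a gene in every muscle, and neither was called (log2 fold changes 0.30 and -0.05). Atp6v0e was at 95.0, 78.4 and 53.7 scaled TPM in C26 muscle and 42.7, 37.3 and 62.1 in control muscle, with C26 replicate 3 below control replicate 3. Atp6v0e2 was the less abundant e gene in every muscle, at 34.3, 29.5 and 34.5 against 37.1, 31.4 and 25.4. Their log2 fold changes of 0.66 and 0.08 did not pass the test. Atp6v0b, the other proteolipid gene listed, had a log2 fold change of 0.09. The accessory protein genes Atp6ap2, also known as the prorenin receptor, and Atp6ap1 had log2 fold changes of 0.42 and -0.13.

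The 3 C26 muscles differed in how far they were from the controls. Over the 15 members called higher, the median log2 difference from the control mean was 1.58 in C26 replicate 1, 1.61 in C26 replicate 2 and 0.94 in C26 replicate 3. Over all 2589 genes called higher it was 1.15, 1.13 and 0.78. Without C26 replicate 3, 19 members were higher and 3 lower, against 24.8% and 16.2% of all genes. The counts were 8 and 0 without C26 replicate 1 (8.43% and 5.01% of all genes), 9 and 1 without C26 replicate 2 (11.4% and 7.08%) and 8 and 0 without control replicate 1 (8.61% and 5.43%). They were 13 and 2 without control replicate 2 (2004 and 1402 of all genes), and 15 and 5 without control replicate 3, the library with the leukocyte genes (16.7% and 14.7%). The count of higher members was largest where the share of all genes called higher was largest. Npc1, Gaa, Ctsl, Ctsd, Ctsf, Lamp2, Atp6v1h and Atp6v1a were called higher in each of these fits and in each of the other alternatives. Cd63, Scarb2, Atp6v1d, Atp6v1b2 and Atp6v0d1 lost their calls with quantile normalization and on the FPKM as deposited. Of the 6 leave-one-out fits, Cd63 lost its call in 5, Atp6v0d1 in 4, and Scarb2, Atp6v1d and Atp6v1b2 in 3 each. Hexa and Atp6v1c1 lost theirs in 2 and 3 of the 6 leave-one-out fits, with limma adjusted p up to 0.0601 and 0.0632, and none of the 4 lower genes was called in every leave-one-out fit.

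**Figure D4:**
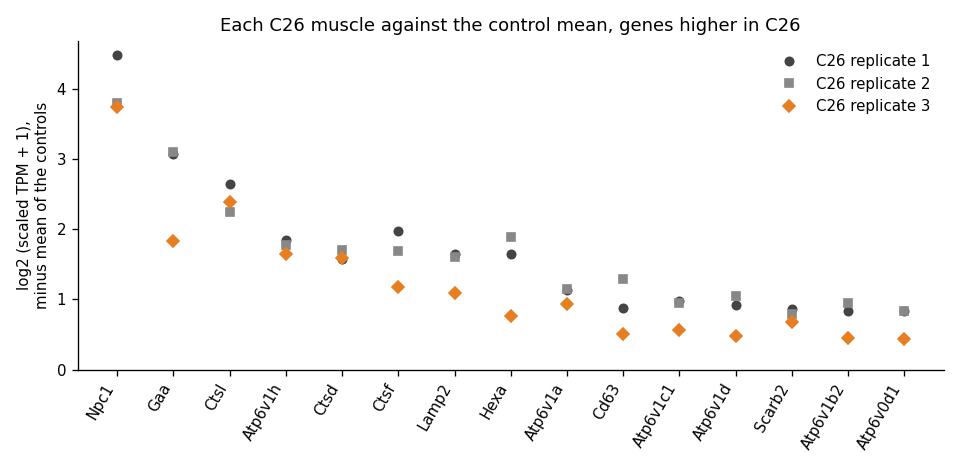
Log2 difference from the control mean (vertical axis, log2 of scaled TPM + 1) of each member called higher in the 3 C26 muscles, with a symbol per muscle. C26 replicate 3 is the lowest of the C26 muscles for 13 of the 15 genes.

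Markers of other cell types were set beside these results, as were the fibre markers above. Macrophages are rich in lysosomes. Of 20 macrophage markers, 18 were listed: 0 were higher and 1, Siglec1, was lower by limma (3 and 3 at an unadjusted p under 0.05). Their summed level was 127 to 572 scaled TPM in C26 muscle and 124 to 554 in control muscle, with the high values in C26 replicate 2 and control replicate 3. Ptprc, the pan-leukocyte antigen, was at 0.394 to 0.709 scaled TPM in C26 muscle. Cd68, which is itself a lysosomal glycoprotein, was at 61.7, 422 and 12.2 scaled TPM in C26 muscle and at 7.11, 2.96 and 8.33 in the controls. It was higher in all 3 C26 muscles with a very wide spread, and was not called (limma adjusted p = 0.0653). The fat cell markers were lower in C26 muscle for 6 of the 9 listed, summing to 494 to 703 scaled TPM against 794 to 6307, and the fibroblast markers for 5 of 10, summing to 307 to 457 against 610 to 854. Of 8 endothelial markers 2 were lower, with sums of 109 to 120 scaled TPM against 131 to 172. The part of these cell types in the results was not tested.

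Beyond these 41 genes, the lysosomal lists held genes in both directions. Of 132 other genes of the lysosome, its sorting routes and its surface complexes, 126 were listed, 25 (19.8%) were higher and 19 (15.1%) lower, with a median log2 fold change of -0.02. These shares lie close to those of all genes given above. The other lysosomal enzymes had 5 higher and 12 lower of 42. Acp5, the tartrate-resistant acid phosphatase of osteoclasts and macrophages, had a log2 fold change of -4.27 (limma adjusted p = 0.00140). Ppt1, the palmitoyl-protein thioesterase, had one of -1.49.

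Of 31 other lysosomal membrane proteins 6 were higher and 2 lower. The former included Tmbim1, at 686, 526 and 191 scaled TPM in C26 muscle against 47.2, 45.2 and 26.2 in the controls, and Sidt2 (log2 fold change 2.03), a nucleic acid transporter. Gpr137b, of the GPR137 family of membrane proteins, was lower (log2 fold change -0.99, limma adjusted p = 0.0179). The sorting list had 6 higher and 2 lower of 21. Vps35, a core subunit of retromer, and Ap1m1, a subunit of the AP-1 adaptor, had log2 fold changes of 1.15 and 0.96, and Grn, the progranulin gene, of -1.20.

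Ragulator, BORC and their partners, which anchor signaling to the lysosome and move it along microtubules, had 7 higher and 2 lower of 21. The 3 with the largest changes were Plekhm2 (log2 fold change 2.21), Arl8b (1.58) and Arl8a (1.34), all from the machinery that couples lysosomes to kinesin. Both lower genes were subunits of Ragulator itself, Lamtor4 (-1.11) and Lamtor2 (-0.54), while Lamtor1, Lamtor3 and Lamtor5 were not called. Kxd1 (0.77) was the only BORC subunit called. Of 11 V-ATPase assembly factors and associated genes, Dmxl2 was higher (1.12) and Ncoa7 lower (-0.62).

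**Figure D5:**
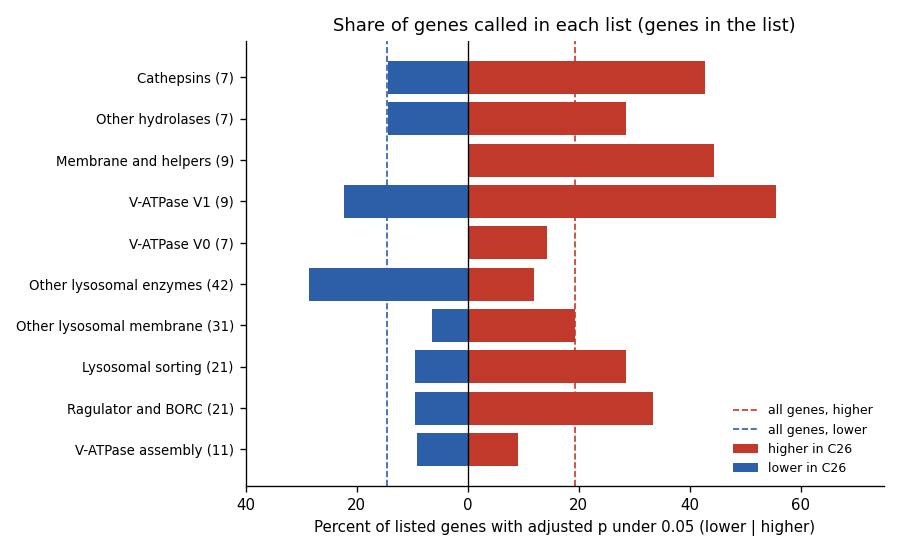
Percent of listed genes called higher and lower in C26 muscle for 5 classes of members and 5 lists of other lysosomal genes, drawn to the right of 0 for higher and to the left for lower; dashed lines give the shares of all 13363 genes (19.4% higher, 14.5% lower). Membrane proteins with helpers and V1 subunits, with 9 genes each, reach 44.4% and 55.6% higher, and V1 also 22.2% lower. The other lysosomal enzymes reach 28.6% lower. The dashed lines are not matched for level: 33.3% of genes of at least 10 scaled TPM were higher, and 18.0% of genes under 10 were lower.

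The MiT/TFE factors and their regulators were read next to the promoter sequences. Of the 7 listed, 2 were higher and 0 lower by limma (4 and 0 at an unadjusted p under 0.05). Flcn, the folliculin gene that acts in the control of these factors at the lysosome, was at 111, 80.3 and 103.0 scaled TPM in C26 muscle and 34.7, 39.8 and 28.1 in the controls (log2 fold change 1.496 ± 0.195 SE, limma adjusted p = 0.00479). Mitf was at 7.88, 7.19 and 7.23 against 3.61, 4.06 and 3.22 (log2 fold change 0.87 ± 0.13 SE, limma adjusted p = 0.00703). Both genes were above every control in each C26 muscle. The transcript of Tfeb had a log2 fold change of 0.18 (limma adjusted p = 0.312) and that of Tfe3 one of -0.24. Fnip1, Fnip2 and Zkscan3 had log2 fold changes of -0.02, 0.39 and 0.37 and were not called. Transcript levels do not measure the location of these proteins in the cell.

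The E-box letters were counted in all windows. CACGTG, which reads the same on both strands, was present in 13 of 34 windows (38.2%) against 11.6% of the 10600 listed genes with a window. TCACGTGA, also the same on both strands and containing CACGTG, was in 7 windows (20.6%) against 2.14%. TCACGTG, searched on both strands, was in 11 windows (32.4%) against 6.85%. The CLEAR palindrome, a longer form that contains both, was in 0 of the 34 windows and in 0.736% of all windows. By response, CACGTG was in 6 of the 11 windows of members called higher, 0 of the 3 of members called lower and 7 of the 20 of members not called. TCACGTGA was in 3 of the 11, 0 of the 3 and 4 of the 20, and TCACGTG, which lies within TCACGTGA and contains CACGTG, in 4 of the 11 (36.4%), 0 of the 3 and 7 of the 20 (35.0%). The 6 with CACGTG were Ctsd, Ctsl, Ctsf, Gaa, Atp6v1a and Atp6v0d1. Hexa, Lamp2, Cd63, Scarb2 and Atp6v1d were higher without these letters in their windows, and Lamp1, Mcoln1 and Gla, printed above, had the letters and were not called. Over all genes, CACGTG was in 15.1% of the windows of genes called higher and 9.18% of those called lower. These are matches of letters in a fixed window and no binding was measured.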

How the data were processed

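Total RNA of whole gastrocnemius was depleted of ribosomal RNA and sequenced as single-end reads of 50 bases. Per the methods, the authors removed adaptor, low-quality and ribosomal reads, aligned with Bowtie2 to GRCm38.p5 and estimated expression with RSEM. The submitters' processing notes also list HISAT2 2.0.4, Bowtie2 2.2.5, RSEM 1.2.12 and mm9, so the build is not settled. The deposited values are FPKM with 2 decimals, and read depth could not be recovered from them, so no interval for counting error is given. FPKM were rescaled to TPM, divided by trimmed-mean (TMM) factors (0.903 to 1.08, trimming 30% of ratios and 5% of levels), and log2-transformed with a pseudocount of 1 and no filter on low values. Groups were compared with limma 3.58.1 in R 4.3.3 with Benjamini-Hochberg adjustment, tested on simulated data. Entrez IDs gave a symbol for 13327 of 13363 genes. Positions are from RefSeq on GRCm38.p6. All members were accounted for; values per muscle are given for up to 5 called members of each class with the largest changes and for V-ATPase subunits with more than 1 gene, and of the other lists up to 3 called genes, except 1 that is not reported here. Further genes were named after their values were seen. Members and lists were chosen with earlier results of these data known. The labels do not say whether replicate numbers pair the muscles, and the main fit took no pairs. Alternatives were the pseudocount, a minimum mean TPM of 1, TMM left out, the FPKM themselves, quantile normalization, a replicate block, an intensity trend and leaving out each muscle, with 3 added after seeing the data.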

Additional observations from a re-analysis of the deposited data

How the results depend on the processing

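The counts of members, 15 higher and 4 lower, were 15 and 4 with a pseudocount of 0.1, with a minimum mean TPM of 1 and with an intensity trend. On the FPKM as deposited they were 10 and 7, where the all-gene median log2 fold change moved from -0.05 to -0.14 and the calls over all genes from 2589 higher and 1932 lower to 1678 and 2504. Of the 15 higher members 10 remained called, and of the 4 lower members 4. Quantile normalization gave 10 and 5 (all genes 16.8% and 11.8%), and kept 10 and 1. Length and GC correction, chosen after seeing the data, gave 15 and 7 (18.4% and 15.9%). Leaving out 1 muscle at a time gave 8 to 19 higher and 0 to 5 lower members. For the other lysosomal genes, 25 higher and 19 lower, it gave 7 to 32 and 5 to 24. On FPKM as deposited 14 of the other lysosomal genes were higher and 25 lower.

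The correlation of deviations between muscles of the same replicate number was -0.04, -0.08 and -0.11, so the numbers were not taken as pairs. With a replicate block 14 members were higher and 1 lower (all genes 13.8% and 9.24%), Atp6v0d1 being the higher member not called (limma adjusted p = 0.0518), and with the block and the length and GC correction 12 and 1 (12.8% and 9.60%), where 16 of the other lysosomal genes were higher and 12 lower.

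Log2 fold changes that changed sign all belonged to members not called. On FPKM as deposited these were Atp6v0b (-0.13), Atp6v0e2 (-0.13), Ctsz (-0.089), Tpp1 (-0.055) and Psap (-0.11). With quantile normalization they were Atp6v0a1 (-0.056), Atp6v0b (-0.31), Atp6v0e2 (-0.25), Ctsa (-0.10), Ctsz (-0.30), Tpp1 (-0.13), Lamp1 (-0.0060) and Psap (-0.24). Scaling without the 20 most abundant genes, added after seeing the data, gave 0.030 for Atp6v0a2. Leaving out 1 muscle gave Atp6v0a2 -0.10 to 0.033, Ctsz -0.12 to 0.38 and Atp6v0e2 -0.062 to 0.20. The cause was not tested. Read depth is unknown, which limits what can be said of members near 1 scaled TPM such as Atp6v1g2 and Gla.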
